A study of Arabidopsis thaliana with 12 samples.

Results

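APTX (AT5G01310, aprataxin-like), AT4G25290 (DNA photolyase-like) and DRT101 (AT5G18070, of the DNA damage repair/toleration series) are 3 Arabidopsis thaliana genes whose names tie them to DNA repair. They are 3 of the 691 genes that have an array probe annotated to them alone, on an array of 3439 probes. Each of the 3 has 1 such probe and appears on 0 probes shared with other genes. They were chosen because their intensity differed between plants in MS medium with sucrose and plants in water in these same samples, so the values of that comparison are given as a description, without a test. The name and the photolyase-like description of AT4G25290 come from the definition of the gene set, because the gene table used here gives that locus no symbol of its own. Intensities cannot check whether the annotation of a probe is right.

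Aprataxin is known from humans, where it removes the AMP that a DNA ligase leaves on a broken DNA end when ligation fails, so that the break can be sealed. It carries a HIT (histidine triad) domain, the fold of a family of nucleotide hydrolases and transferases. Photolyases are flavoproteins that use blue light to split the pyrimidine dimers that ultraviolet light makes in DNA, a main route of ultraviolet repair in plants, and they share their fold with the cryptochrome blue-light receptors. The DRT genes were named because Arabidopsis cDNAs raised the resistance of repair-deficient Escherichia coli to DNA damage. By sequence DRT101 belongs to the phosphohexomutase family, whose members move a phosphate group on sugars and amino sugars.

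The 6 samples labelled MS with sucrose were wild-type plants of the ecotype Wassilevskija kept for 6 h in MS (Murashige and Skoog) medium, the mineral salts used to culture plant tissue, with 60 mM sucrose. The 6 water samples were wild-type plants of the same ecotype, with no time in their labels. Medium, sugar and possibly time and handling therefore differ together and cannot be told apart. Total RNA was measured. Which organ was used, how old the plants were and what the numbers 1 to 6 stand for are not stated in the labels. They also do not say whether each sample had its own plants, so errors and p-values may cover technical spread alone. In bulk RNA, fewer cells of a type and less RNA per cell cannot be told apart.

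The values are deposited linear intensities in arbitrary units, 1 per probe and sample, and the number of arrays limits their precision. Array medians were 0.309 to 0.339 in MS with sucrose and 0.171 to 0.188 in water, so most probes were brighter in MS with sucrose as deposited. For comparisons, 0.0718 was added to each intensity, log2 was taken and the arrays were quantile normalized, which gives every array the same distribution. A log2 difference is MS with sucrose minus water on that scale, so it compares a probe with the rest of its array. On that scale the median difference of all probes was 0.00431, against 0.383 without scaling between arrays.

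APTX and AT4G25290 were dimmer in MS with sucrose and DRT101 was brighter. As deposited, mean APTX intensity was 3.47-fold lower and mean AT4G25290 intensity 2.14-fold lower in MS with sucrose, while mean DRT101 intensity was 5.56-fold higher. These folds include the higher array medians of MS with sucrose. On the normalized scale APTX was 4.81-fold lower, AT4G25290 2.65-fold lower and DRT101 2.63-fold higher, so APTX differed most there. The groups of 6 did not overlap for any of the 3 genes in deposited intensity. Of all probes, 4.36% were lower without overlap and 29.5% were higher without overlap in deposited intensity, shares that are read against nothing here because the genes were chosen on this comparison.

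**Figure D1:**
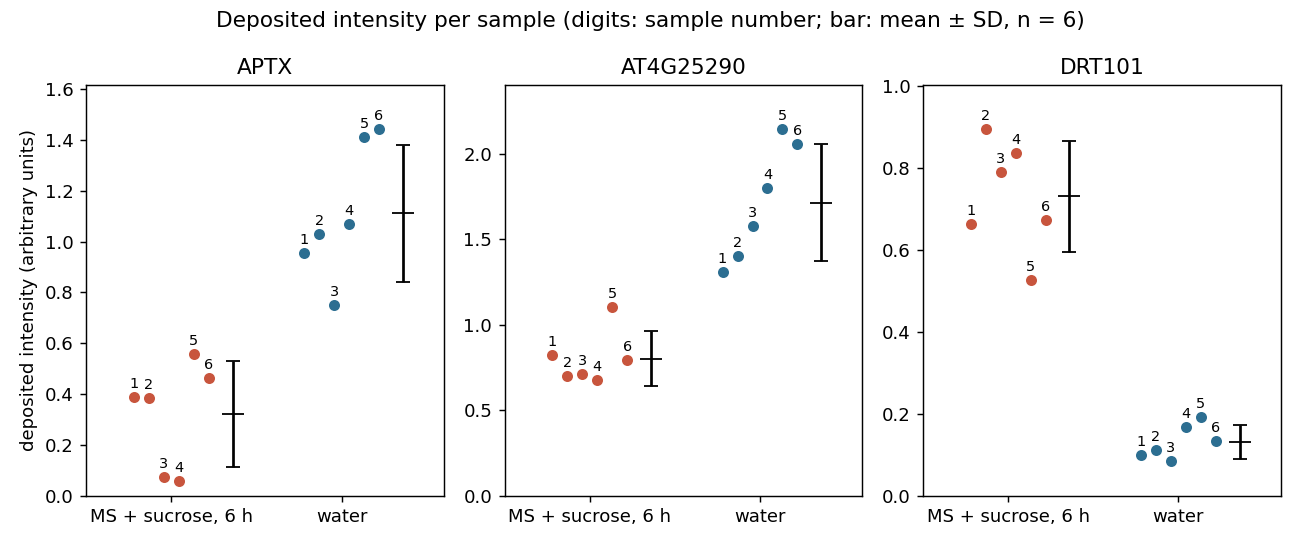
Deposited intensity (arbitrary units, y axis from 0, a separate scale per gene) of APTX, AT4G25290 and DRT101 in each sample of MS with sucrose (left) and water (right); digits are sample numbers and black bars the mean ± SD of 6 samples. The APTX samples in MS with sucrose range from 0.0564 to 0.557, all under the lowest water sample at 0.752, and numbers 3 and 4 lie apart at the bottom.

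APTX, the aprataxin-like gene, had intensities of 0.387, 0.386, 0.0725, 0.0564, 0.557 and 0.463 in samples 1 to 6 of MS with sucrose. In samples 1 to 6 of water it had 0.956, 1.03, 0.752, 1.07, 1.41 and 1.44. Every sample in MS with sucrose lay below every water sample, and within MS with sucrose numbers 3 and 4 were far below the other 4. The mean was 0.320 ± 0.208 in MS with sucrose and 1.11 ± 0.269 in water (SD, n = 6 each). The fitted log2 difference was -2.27 (SE 0.37). Among the 691 genes it was the fourth largest difference towards lower values, and it ranked 16 by size in either direction among all 3439 probes.

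The spread of APTX was uneven between the groups. Its SD on the normalized log2 scale was 0.93 in MS with sucrose and 0.25 in water. The first of these was at least as large as that of 96.2% of all probes, and the second as that of 73.3%. In MS with sucrose, numbers 3 and 4 averaged 1.77 below the other 4 on the log2 scale. Both numbers lay below all of the other 4 for 287 probes (8.35%) and above all of them for 307 (8.93%). Of the 287, 11 (0.32% of all probes), APTX included, had at least this gap, a cut set at APTX itself. The APTX intensities in these 2 samples, 0.0725 and 0.0564, lay close above and under the added offset of 0.0718, where the log2 scale is compressed. Water numbers 3 and 4, at 0.752 and 1.07, did not stand apart in this way. Without numbers 3 and 4 of both groups, an alternative chosen after the data were seen, the log2 difference of APTX was -1.78 (SE 0.14).

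AT4G25290, the photolyase-like gene, had intensities of 0.826, 0.703, 0.710, 0.675, 1.10 and 0.797 in samples 1 to 6 of MS with sucrose. In samples 1 to 6 of water it had 1.31, 1.40, 1.58, 1.80, 2.15 and 2.06. Number 5 was the brightest sample of each group, and its value in MS with sucrose came nearest to the water samples without reaching the lowest of them. The mean was 0.802 ± 0.159 in MS with sucrose and 1.72 ± 0.344 in water (SD, n = 6 each). The fitted log2 difference was -1.41 (SE 0.14), the eighth largest towards lower values among the 691 genes. Its SD on the normalized log2 scale was 0.24 in MS with sucrose and 0.26 in water, so this gene was about as variable in both groups.

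DRT101, the damage tolerance gene, had intensities of 0.664, 0.895, 0.790, 0.837, 0.527 and 0.672 in samples 1 to 6 of MS with sucrose. In samples 1 to 6 of water it had 0.0990, 0.111, 0.0856, 0.167, 0.192 and 0.133. The lowest sample in MS with sucrose, number 5 at 0.527, was well above the brightest water sample, which was also number 5. The mean was 0.731 ± 0.135 in MS with sucrose and 0.131 ± 0.0415 in water (SD, n = 6 each). The fitted log2 difference was 1.40 (SE 0.17), which is 2.63-fold, a smaller value than the ratio of mean intensities; without scaling between arrays the log2 difference was 1.99, and with a larger offset of 0.143 it was 1.18. In size this difference ranked 120 among all probes, close to AT4G25290 at rank 117.

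Same-numbered samples, whose deviations from the group means correlated at 0.174 to 0.390 across the array, were also compared as pairs. All 6 pairs had the direction of the group means for each gene, as groups that do not overlap must give, so the pairs show sizes only. APTX in MS with sucrose was 10.4-fold below water in number 3, 18.9-fold below in number 4, and 2.47- to 3.12-fold below in the other 4 pairs. AT4G25290 in MS with sucrose was between 1.59-fold (number 1) and 2.67-fold (number 4) below water. DRT101 in MS with sucrose was 2.74-fold above water in number 5 and 9.23-fold above in number 3, with the other 4 pairs between 5.0- and 8.10-fold. On the normalized log2 scale the pair differences were -2.27 ± 0.81 for APTX, -1.41 ± 0.28 for AT4G25290 and 1.40 ± 0.50 for DRT101 (SD, n = 6 pairs). The pairs thus placed the most extreme value of APTX and of AT4G25290 in number 4 and that of DRT101 in number 3.

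**Figure D2:**
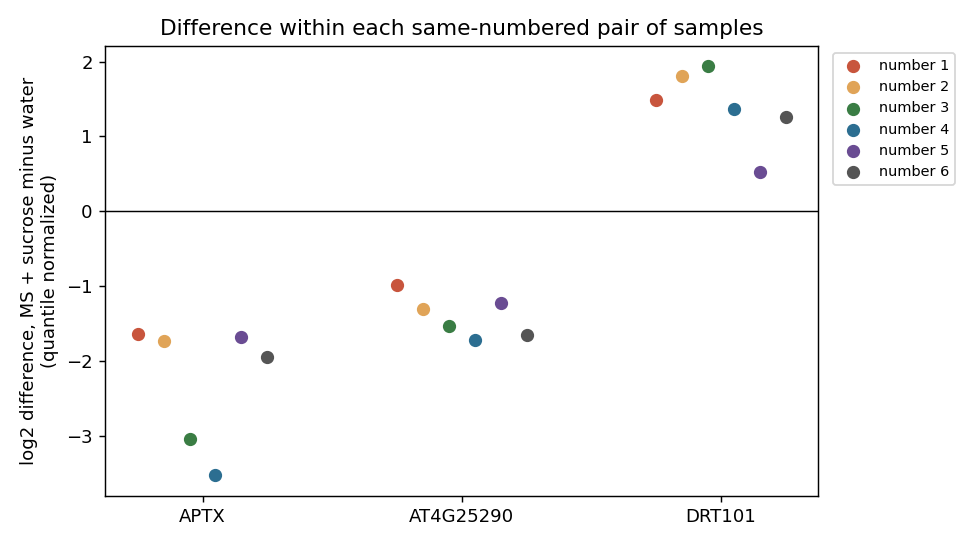
Log2 difference, MS with sucrose minus water, on the normalized scale (y axis) within each of the 6 same-numbered pairs (coloured points) for APTX, AT4G25290 and DRT101 (x axis). All APTX and AT4G25290 points lie below 0 and all DRT101 points above it, as groups without overlap must give. APTX numbers 3 and 4, at -3.05 and -3.53, lie apart from the other 4.

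The position of a probe in the order of its own array does not depend on the scaling of the array. APTX stood at the 18.1st to 69.1st percentile of its array in MS with sucrose (median 58.0) and at the 87.4th to 92.3rd in water (median 90.4). AT4G25290 stood at the 77.2nd to 86.7th percentile in MS with sucrose (median 79.1) and at the 91.8th to 94.8th in water (median 93.9). DRT101 stood at the 67.2nd to 83.4th percentile in MS with sucrose (median 78.3) and at the 28.8th to 51.1st in water (median 37.7). The groups did not overlap in this measure for any of the 3 genes, which were chosen on this comparison, so this is a description. The share of all probes without overlap in percentile was not counted. On the normalized scale it was 12.6% towards lower and 10.3% towards higher values. A percentile also depends on how well a probe binds, so it is compared between samples and not between genes.

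The direction of the 3 genes was the same under each of 4 scalings of the arrays, and the sizes differed. APTX was at -2.27 with quantile normalization, -2.36 with cyclic loess, -1.81 on the deposited scale and -2.48 with each array centred on its median. AT4G25290 was at -1.41, -1.30, -1.03 and -1.70 under the same scalings in the same order. DRT101 was at 1.40 with quantile normalization and at 1.99 on the deposited scale. It was at 1.31 with cyclic loess and 1.32 with median centring. The median of all probes lay at -0.286 with median centring.

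**Figure D3:**
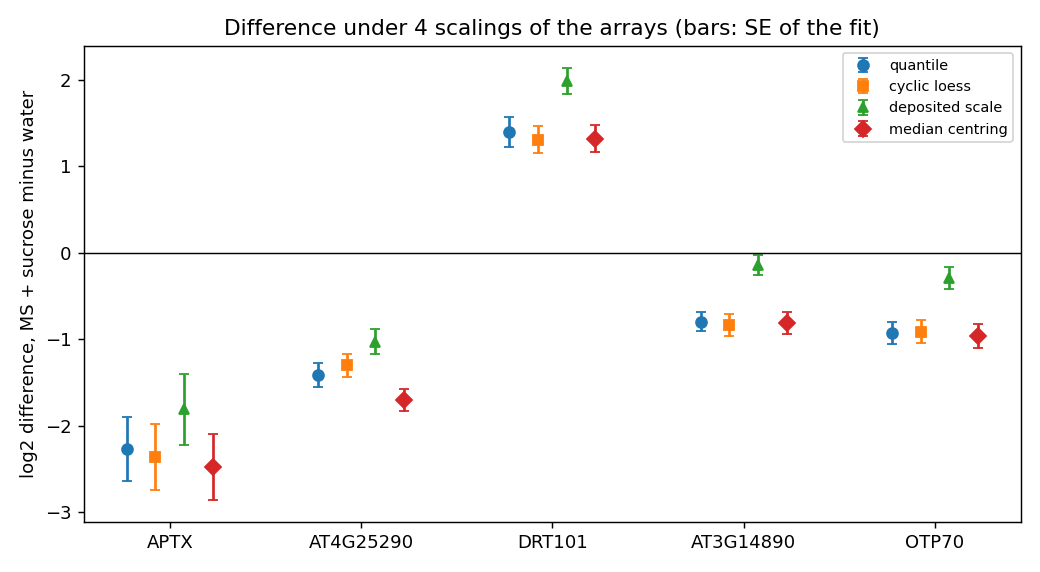
Log2 difference, MS with sucrose minus water (y axis), under 4 scalings of the arrays (symbols), with bars of 1 SE of the fit, for APTX, AT4G25290, DRT101, the listed repair gene AT3G14890 and OTP70, a neighbour of AT4G25290. The first 3 genes keep their side of 0, while AT3G14890 and OTP70 come close to 0 on the deposited scale, at -0.14 and -0.29. The first 3 were chosen for their difference in these samples and the others were not, so this contrast is a description.

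The rest of the repair pathways, as listed here, was hardly measured by probes of 1 gene. In all, 9 lists held 128 genes: the photolyase and cryptochrome family, base excision and single-strand break repair, nucleotide excision repair, mismatch repair, double-strand break repair and checkpoint, damage tolerance with the DRT genes, DNA replication, the hexosamine pathway with the phosphohexomutases, and the HIT family. Besides APTX, AT4G25290 and DRT101 they held 125 genes, of which 3 had a probe of their own and 3 others lay only on probes shared with other genes, which were not used. The 3 were AT3G14890 and DME in the list of base excision and single-strand break repair, and DRT100 in that of damage tolerance. After Benjamini-Hochberg adjustment over all probes, limma called 0 of the 3 higher and 1 lower, where 18.1% of all probes were called higher and 19.3% lower. At an unadjusted p under 0.05 the counts among the 3 were the same. Their median log2 difference was 0, against 0.00431 for all probes, and with 3 genes neither number describes the pathways. DME and DRT100 were listed at 0 in nearly all samples, which fixes this median near 0. The counts and shares above therefore rest on AT3G14890 alone and are read against nothing. The lists are not complete, and 5 further genes of DNA maintenance with a probe of their own are given under other observations. The 6 other photolyase and cryptochrome genes, the 5 other HIT family genes and the 8 other hexosamine and phosphohexomutase genes had 0 probes of their own among the probes named here.

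AT3G14890, which stands with APTX in the list of base excision and single-strand break repair, was the listed gene that passed. Its intensities were 0.222, 0.323, 0.280, 0.192, 0.191 and 0.255 in samples 1 to 6 of MS with sucrose. They were 0.266, 0.296, 0.260, 0.229, 0.280 and 0.308 in samples 1 to 6 of water. In deposited intensity the groups overlapped, with numbers 2 and 3 brighter and the other 4 numbers dimmer in MS with sucrose than in their water pair. Relative to the rest of its array, AT3G14890 fell by 0.80 on the log2 scale (SE 0.11, adjusted p = 0.000146 by limma), and the normalized groups did not overlap, as for 12.6% of all probes towards lower values. It stood at the 32.4th to 51.4th percentile of its array in MS with sucrose and at the 60.3rd to 68.2nd in water. With adjacent sample numbers averaged it passed at an adjusted p of 0.0117 by limma, where 11.7% of all probes were called lower. On the deposited scale, where 6.89% of probes were called lower and 44.2% higher, it did not pass, at -0.14 (adjusted p = 0.336 by limma), so the call rests on the scaling between arrays.

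DME (AT5G04560, DEMETER), a DNA glycosylase that removes methylated cytosine, was listed at 0 in 5 of the 6 samples of MS with sucrose and in all 6 water samples, and its other value was 0.0495. DRT100 (AT3G12610), a second gene of the DRT series, was listed at 0 in all 12 samples. What a listed 0 stands for is not stated, so these probes give no comparison with DRT101. Under median centring the 2 probes took negative values of -0.54 and -0.67 on the log2 scale, since centring moves a probe at 0 by the difference of the array medians.

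**Figure D4:**
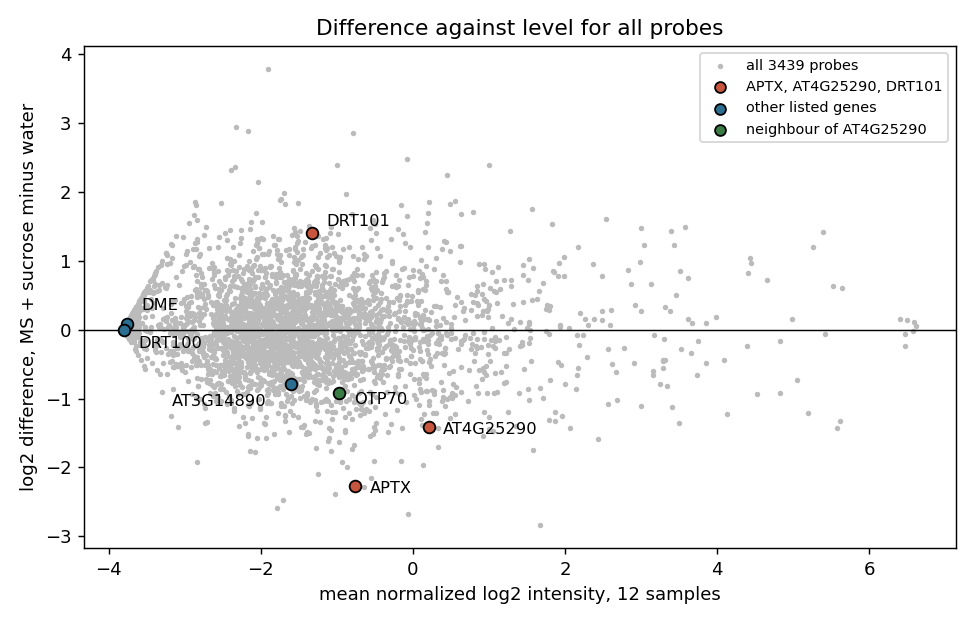
Log2 difference, MS with sucrose minus water (y axis), against mean normalized log2 intensity over 12 samples (x axis) for all 3439 probes (grey), with the 3 genes in red, the other listed genes in blue and OTP70 in green. APTX lies near the lower edge of the cloud, at rank 7 towards lower values. AT4G25290 ranks 57 towards lower and DRT101 62 towards higher values, so other probes lie beyond them. AT3G14890 lies inside the cloud at -0.80, and DME and DRT100 sit at the left end, where intensities are listed at 0.

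Of the 5 genes on each side of each of the 3 loci in the gene table, 1 had a probe of its own. This was OTP70 (AT4G25270, of the organelle transcript processing series), which lies 2 places from AT4G25290. OTP70 is a pentatricopeptide repeat protein gene, a family that acts on RNA in plastids and mitochondria. Its intensities were 0.540, 0.325, 0.312, 0.485, 0.444 and 0.339 in samples 1 to 6 of MS with sucrose. They were 0.469, 0.504, 0.571, 0.561, 0.465 and 0.472 in samples 1 to 6 of water. The deposited groups overlapped through numbers 1 and 4 of MS with sucrose. On the normalized scale OTP70 fell by 0.92 (SE 0.13, adjusted p = 0.000177 by limma), and on the deposited scale it was at -0.29 (adjusted p = 0.0695 by limma). The normalized groups of OTP70 did not overlap, and it stood at the 48.6th to 69.5th percentile of its array in MS with sucrose and at the 77.7th to 83.3rd in water.

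Likeness of profile was measured as the root mean square difference of normalized log2 values over the 12 samples, each gene centred on its own mean, among the other 690 genes. Because the group difference makes up most of each profile, this measure mainly finds genes with a difference of similar size, and it is given without a test. The profile nearest to APTX was that of chr31 (AT1G05490), named as a chromatin remodeling gene, at 0.567, followed by AT2G21720 at 0.588 and the cyanase gene CYN (AT3G23490) at 0.617. In MS with sucrose, chr31 had its lowest intensity in number 3, at 0.146, and CYN its lowest in number 4, at 0.943. The sample of number 4 that was low for APTX had a chr31 intensity of 0.378, between the other chr31 values of that group.

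AT4G25290 had closer neighbours in profile than APTX. AT3G09080 lay at 0.168, AT2G31800 at 0.198 and AT3G06570 at 0.257 from it, with log2 differences of -1.35, -1.15 and -1.17. DRT101 lay 0.213 from AT1G34270, 0.244 from AT4G22190 and 0.260 from AT4G24090, whose log2 differences were 1.23, 1.23 and 1.20. Between the genes themselves, APTX and AT4G25290 lay 0.681 apart, more than either lay from its own nearest profile. DRT101 lay 1.98 from APTX and 1.45 from AT4G25290, as opposite directions make it.

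**Figure D5:**
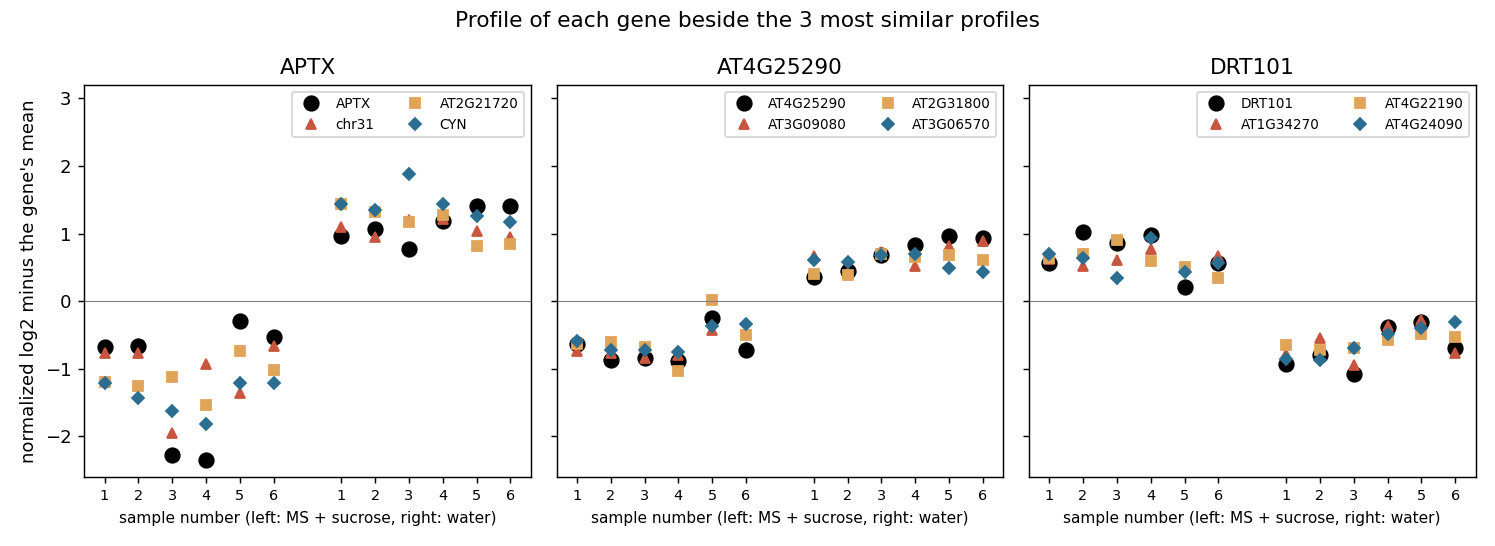
Normalized log2 value minus the gene's own mean over 12 samples (y axis) by sample number, with MS with sucrose on the left and water on the right of each panel, for APTX, AT4G25290 and DRT101 (black circles) and the 3 genes with the most similar profile (coloured symbols). The coloured symbols follow AT4G25290 and DRT101 closely, while APTX numbers 3 and 4 of MS with sucrose lie below its neighbours.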

How the data were processed

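The authors deposited 1 linear intensity per probe and sample. The background subtraction and scaling behind these intensities are not stated in the labels, 13.6% of values are exactly 0, and 2 to 8 probes per array sit at a common ceiling. Values were used as log2(intensity + 0.0718), the 10th percentile of values above 0. They were quantile normalized because the array medians lay up to 0.758 apart on this log2 scale. All 3439 probes were fitted with limma 3.58.1 in R 4.3.3 (lmFit, eBayes with trend, 6 against 6 samples, two-sided, Benjamini-Hochberg, threshold 0.05). The fit was tested on simulated data. Figures were drawn with matplotlib 3.10.9.

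Probes were named through the platform annotation and the TAIR10.1 gene table. Of the probes, 692 had 1 gene, 870 several and 1877 are unnamed here. Genes named are APTX, AT4G25290 and DRT101, listed genes with a probe of their own, 3 nearest profiles each, and neighbours within 5 places. The members and lists were chosen with earlier results of these data known.

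Same-numbered samples of the groups correlated at 0.174 to 0.390 in their deviations from the group means, in all 6 pairs, so they were compared as pairs. The labels do not state this pairing, and what it reflects was not tested. Adjacent numbers also correlated within MS with sucrose (0.133 to 0.157) and water (0.121 to 0.309), so errors that take the 12 samples as independent may be too small. Alternatives were other scalings, another offset, zeros as missing, leaving out dim probes, a block on the number, averaged adjacent numbers, other variance models and samples left out.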

Additional observations from a re-analysis of the deposited data

Results flagged for a closer look

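Among 39 groups of 6 deposited intensities with any spread, 4 had a single sample far from the rest, and chance gives about 1.95. A further 3 groups were listed at 0 throughout and have no range. AT4G25290 was highest in number 5 of MS with sucrose, at 1.10, with a gap to the next sample of 0.649 of the group's range. OSB1 was highest in number 1 of MS with sucrose, at 0.405 (0.632 of the range), and CYN in number 3 of water, at 12.01 (0.643 of the range). DME was above 0 in number 5 of MS with sucrose alone, so that its gap spans the range (1) by construction. The low APTX values in numbers 3 and 4 of MS with sucrose form a pair, and such a gap measure for 1 sample does not see a pair.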

How the results depend on the processing

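Over 26 alternative settings APTX stayed between -2.51 and -1.78 on the log2 scale, AT4G25290 between -1.70 and -1.03 and DRT101 between 1.18 and 1.99. AT4G25290 moved by more than the spread between samples on the deposited scale (-1.03) and with median centring (-1.70), and DRT101 on the deposited scale (1.99). With 1 sample left out, APTX ran from -2.45 to -2.04, AT4G25290 from -1.52 to -1.34 and DRT101 from 1.32 to 1.5. The SE of APTX was 0.37 with 12 independent samples, 0.30 with the number as a replicate block and 0.54 with adjacent numbers averaged. With the replicate block the SE of AT4G25290 went from 0.14 to 0.11, while that of DRT101 rose from 0.17 to 0.19. AT3G14890 and OTP70 each passed in 25 of 26 settings, with the deposited scale as the exception. The probes called numbered 624 higher and 665 lower. They were 1519 and 237 on the deposited scale, 487 and 1271 with median centring, 349 and 402 with adjacent numbers averaged, and 262 and 294 with a replicate block on these averages. With 1 sample left out, 544 to 619 were higher and 589 to 673 lower. DME turned from 0.08 to -0.54 under median centring (adjusted p = 0.00116 by limma), as a probe at 0 must there. AT4G12740 was at -0.32 and turned to 0.35 on the deposited scale (adjusted p = 0.0389 by limma), and the cause was not tested. Among the genes given with a p, a replicate block on the 12 samples changed the call of OSB1 alone (adjusted p = 0.0344 by limma), which did not pass with the block on averaged adjacent numbers (adjusted p = 0.144 by limma). Values near the added offset, such as APTX in numbers 3 and 4 of MS with sucrose, limit how large a fold can be measured.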

Other observations

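A further 5 genes of DNA maintenance were picked after the names of the genes with a probe were seen, so they support nothing. Of these, limma called 1 of 5 higher, where 18.1% of all probes were. This was AT1G78790, at 0.55 on the log2 scale (SE 0.13, adjusted p = 0.00501 by limma). Its mean intensity was 0.398 ± 0.0669 in MS with sucrose and 0.131 ± 0.0235 in water (SD, n = 6 each). The call was lost when numbers 1 and 2 were left out (adjusted p = 0.0581 by limma) and under a replicate block on averaged adjacent numbers (adjusted p = 0.0544 by limma). AT3G50880 was at 0.32, OSB1 at 0.31, AT4G31210 at 0.10 and AT4G12740 at -0.32, and these 4 did not pass. With 1 sample left out they ran from 0.20 to 0.37, from 0.17 to 0.38, from -0.0021 to 0.20 and from -0.39 to -0.25, in that order. AT4G12740 passed as lower without sample 2 (adjusted p = 0.0182 by limma) or sample 6 (adjusted p = 0.0424 by limma) of MS with sucrose. All 5 had a higher mean in MS with sucrose in deposited intensity, from 1.39-fold for AT4G12740 to 3.03-fold for AT1G78790, on arrays whose medians were also higher in MS with sucrose. On the deposited scale all 5 passed as higher, as did 44.2% of all probes.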
